A study of Homo sapiens with 9 samples.

Results

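Knockout clone 2 was compared with knockout clone 1, across all genes, in KG-1a cells, a line of immature human acute myeloid leukaemia cells. The 6 libraries of the comparison were chosen by their genotype labels, 3 of clone 1 and 3 of clone 2, out of 9 in the series. The other 3 libraries came from KG-1a cells with intact PRMT2 (WT) and serve as the reference level. Both clones carry a CRISPR/Cas9 knockout of PRMT2 and no other labelled change, and all cells were grown in the same medium with no drug. Each knockout group is a single clone, so the effect of a clone's own history and any effect of its particular PRMT2 alleles cannot be told apart. The labels do not say whether the 3 libraries of a clone came from separate cultures, and p-values may therefore measure only technical spread.

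PRMT2 belongs to the protein arginine methyltransferases, enzymes that add methyl groups to arginine residues of histones and other proteins. A clone is grown from a single cell, and so it carries forward the expression states and mutations of that cell. Some of these states are held by DNA methylation at CpG-rich promoters and are copied at each division, which can leave a gene silent in one clone and active in its sister. The comparison asks how far the 2 knockouts differ from each other although both were made as knockouts of the same gene.

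The libraries held 28006342 to 43149410 counted read pairs, and 27618 to 30049 of 60605 genes had at least 1 count. Levels are given as CPM, read pairs of a gene per 1e6 in the scaled library total. Of 6 genes chosen in advance as KG-1a identity markers, 4 were high enough to be tested. CD34 averaged 735 and 764 CPM in clones 1 and 2, PTPRC 542 and 520, and SPN 895 and 876, and none of these 3 passed the test. The fourth, KIT, was called higher in clone 2, at 6.95 and 20.0 CPM. The remaining identity markers, FLT3 (0.0207 and 0.0333 CPM) and MPO (0.168 and 0.211 CPM), were near 0 and too low to be tested. Of 18 markers of fibroblasts, epithelium, endothelium and neural cells, 13 were too low to be tested, and CDH5 and SOX10 were at 0 in all 9 libraries. All 18 had been expected to be absent, which VWF, MAP2 and COL3A1, at 2.17 to 7.29 CPM, were not. Of the 5 tested, 2 were higher in clone 2 past the adjusted p, VWF (5.54 and 7.13 CPM, log2 difference 0.37) and TEK (0.566 and 1.09 CPM, 0.93). MAP2 (7.29 and 5.13 CPM, -0.51) and COL3A1 (3.70 and 2.17 CPM, -0.78) were lower, and COL1A1 (0.288 and 0.435 CPM) did not pass. Over all genes tested, 13.4% were higher and 12.6% lower. Clone 1 replicate 1 stood apart: 13.33% of its read pairs had more than 1 place in the genome, while the share was 3.86% to 4.51% elsewhere. The mitochondrial ribosomal RNA MT-RNR1 reached 13431 CPM there, against 44.1 and 44.5 CPM in the other clone 1 libraries and 14.8 to 23.8 CPM in clone 2. With all libraries MT-RNR1 had a log2 fold change of -7.86 and was not called (adjusted p = 0.0792). It passed at -1.20 without that library (adjusted p = 0.0101) and at -8.45 without clone 1 replicate 2 (adjusted p = 0.0488).

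PRMT2 itself did not separate the clones. Its level was 21.2, 20.2 and 20.7 CPM in clone 1, 21.4, 21.1 and 21.2 CPM in clone 2 and 39.4, 39.0 and 39.8 CPM in WT. Both knockouts lay below every WT library, with log2 fold changes against WT of -0.93 in clone 1 and -0.89 in clone 2. Between the clones the log2 difference was 0.04 ± 0.057 (SE), with an adjusted p of 0.708 in edgeR's quasi-likelihood test. Of 8 PRMT family members tested, 4 were higher in clone 2 past the adjusted p and 0 lower, where 13.4% of all genes tested were higher and 12.6% lower. They were PRMT1, the main asymmetric methyltransferase, at 202 to 204 CPM in clone 1 and 238 to 246 CPM in clone 2, CARM1 (log2 difference 0.28), PRMT5, the main symmetric methyltransferase (0.21), and PRMT6 (0.32). Their libraries did not overlap between the clones, which also held, with clone 2 higher, for 18.9% of all genes tested, and each difference was small.

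Across 20655 genes tested, 582 (2.82%) were called between the clones, which asked for an adjusted p under 0.05 and a log2 fold change of 1 or more in either direction. Of these, 327 (1.58%) were higher and 255 (1.23%) lower in clone 2. By the adjusted p alone, 2762 genes (13.4%) were higher and 2593 (12.6%) lower, 25.9% together. Most of those differences were small, since 3960 of the 5355 genes (73.9%) differed by under 0.5 on the log2 scale. At the other end, 90 called genes differed by 2 to 3 and 71 by at least 3. Libraries of the clones did not overlap for 7779 genes (37.7%). Called genes were mostly weakly expressed. Going by the average of whichever clone was higher, 121 reached 5 CPM, 74 higher and 47 lower in clone 2. That was 1.08% of the 11232 tested genes that reached it by the same measure, against 4.89% of the 9423 that did not. Protein-coding genes and long non-coding RNAs were called about equally often, at 3.1% of 12754 and 3.11% of 3885 tested. Protein-coding genes were called higher 259 times and lower 136 times, and long non-coding RNAs 45 and 76 times. Against WT, with which both contrasts share libraries, 1565 genes (7.58%) were called in clone 1 and 1232 (5.96%) in clone 2. Without clone 1 replicate 1 the clones differed by 578 called genes, of which 496 were among the 582.

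**Figure D1:**
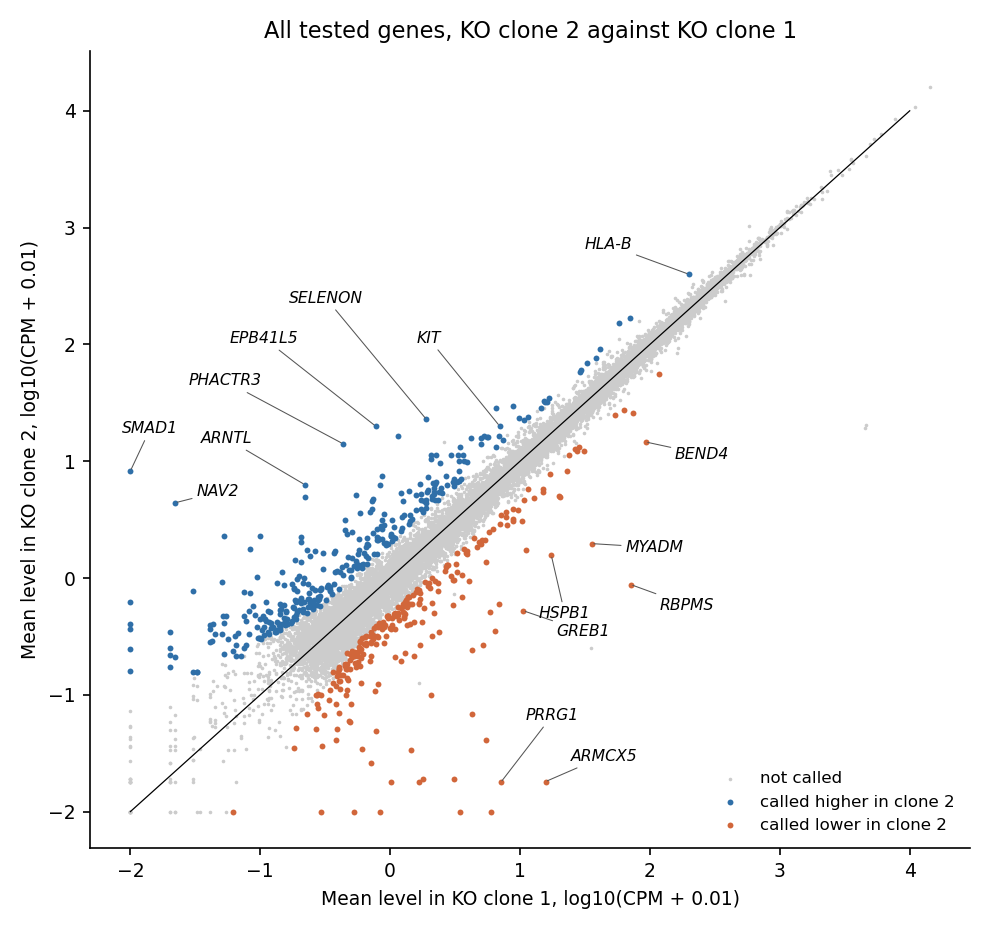
Mean level of each tested gene in KO clone 1 (horizontal axis) and KO clone 2 (vertical axis), as log10 of CPM plus 0.01, with 3 libraries a clone. Grey points were not called, blue points (327) were called higher and orange points (255) lower in clone 2, and the line marks equal levels; the 2 grey points far below the line at the right are MT-RNR1 and MT-RNR2, which were high in 1 library.

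The sharpest differences were genes on in 1 clone and off in the other. By level, 12 genes had a mean of at least 2 CPM in 1 clone and under 0.1 CPM in the other. Of these, 8 were on in clone 1 and 4 in clone 2. WT cells expressed 9 of the 12 at 2 CPM or more, 6 of those on in clone 1 and 3 of those on in clone 2, so for these the off state was the departure from WT. WT lay between the limits for ENSG00000281566 and ENSG00000279041, and under 0.1 CPM for HSPA6, an inducible heat shock protein. The 250 bases upstream of the RefSeq start are printed for 4 of them, as the stretches where CpG methylation could be looked up, from build GRCh38.p14 on the plus strand, with every CG in capitals. SMAD1 is at chr4:145481056-145481305, ARMCX5 at chrX:102599265-102599514, PRRG1 at chrX:37349114-37349363 and GPRASP1 at chrX:102651233-102651482.
SMAD1: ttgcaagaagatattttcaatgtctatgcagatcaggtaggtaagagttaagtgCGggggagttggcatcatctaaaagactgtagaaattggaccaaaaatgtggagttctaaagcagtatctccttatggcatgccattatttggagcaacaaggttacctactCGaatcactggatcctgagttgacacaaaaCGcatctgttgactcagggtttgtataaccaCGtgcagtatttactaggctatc
ARMCX5: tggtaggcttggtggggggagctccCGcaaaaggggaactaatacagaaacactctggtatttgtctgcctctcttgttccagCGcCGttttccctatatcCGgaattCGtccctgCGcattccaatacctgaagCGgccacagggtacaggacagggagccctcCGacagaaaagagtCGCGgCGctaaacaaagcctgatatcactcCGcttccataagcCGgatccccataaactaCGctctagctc
PRRG1: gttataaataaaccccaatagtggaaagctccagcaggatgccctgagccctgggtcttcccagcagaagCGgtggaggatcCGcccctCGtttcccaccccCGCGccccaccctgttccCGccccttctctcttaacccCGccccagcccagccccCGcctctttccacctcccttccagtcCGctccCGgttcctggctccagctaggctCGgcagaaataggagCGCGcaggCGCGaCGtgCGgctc
GPRASP1: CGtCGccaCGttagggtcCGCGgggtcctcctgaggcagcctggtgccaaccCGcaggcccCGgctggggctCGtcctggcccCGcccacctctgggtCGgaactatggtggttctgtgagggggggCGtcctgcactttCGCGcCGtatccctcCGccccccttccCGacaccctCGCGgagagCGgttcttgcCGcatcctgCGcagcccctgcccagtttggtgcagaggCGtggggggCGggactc
The RefSeq starts used here differ from the GENCODE gene starts used for positions. The windows of ARMCX5 and GPRASP1 lie past their GENCODE starts, 102599168 and 102651092, and those of SMAD1 and PRRG1 span theirs. That of NAV2 ends at 19345235, before its GENCODE start at 19350724. A window may therefore not be the promoter in use. The stretches differ in CpG content. SMAD1 has 4 CG in the window and a ratio of observed to expected CpG of 0.39, while ARMCX5 has 14 and 0.78, PRRG1 17 and 0.70, and GPRASP1 23 and 0.72. RefSeq promoters matched 8 of the 9 switching genes that have a symbol. ARMCX5 and ARMCX5-GPRASP2 share 1 window, which is counted for each of them, so the 8 are not all separate promoters. The median ratio of the 8 was 0.72, and 7 were at 0.6 or more (87.5%), NAV2 only just at 0.60. The same share was 76.2% over 11163 tested genes, 57.8% over 322 called genes and 47.4% over all 27305 promoters, with medians of 0.81, 0.68 and 0.56. Neither DNA methylation nor DNA copy number was measured here. For the off genes, silencing and loss of the DNA therefore cannot be told apart.

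SMAD1, a transcription factor that carries bone morphogenetic protein (BMP) signals to the nucleus, was silent in clone 1. It had 0 counts in all 3 clone 1 libraries, 7.34, 8.91 and 8.48 CPM in clone 2 and 5.94, 6.89 and 6.28 CPM in WT. Clone 2 was at least 253-fold higher, taking 3 counts over the clone 1 libraries as the floor, with an adjusted p of 5.05e-24. The gene spans 145481194 to 145559176 of chromosome 4. Its tested neighbours moved little: ABCE1 stood at 138 and 151 CPM, OTUD4 at 90.5 and 98, MMAA at 3.55 and 4.03 and ZNF827 at 76.3 and 67.5 CPM in clones 1 and 2. SMAD5, which carries the same signals, was at 48.8 to 53.4 CPM in clone 1 and 46.8 to 48.2 CPM in clone 2 (adjusted p = 0.0604, or 0.0271 without clone 1 replicate 1).

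NAV2, a neuron navigator protein, had 1 count over the clone 1 libraries, against 4.97, 4.35 and 3.90 CPM in clone 2 and 10 to 11.8 CPM in WT. The ratio of clone 2 to clone 1 was 406, with a 95% counting interval of 72.5 to 1.61e+04. BLVRA, which reduces biliverdin to bilirubin, was at 0.0307 to 0.146 CPM in clone 1, at 2.24 to 2.41 CPM in clone 2 and at 1.88 to 2.31 CPM in WT. Some genes outside this definition were also far lower in clone 1, at levels above its limit of 0.1 CPM. ARNTL, the clock transcription factor that pairs with CLOCK, was at 0.293, 0.0931 and 0.245 CPM in clone 1, 6.56, 6.11 and 6.21 CPM in clone 2 and 8.28 to 9.01 CPM in WT. PHACTR3, a regulator of protein phosphatase 1 and actin, averaged 0.423 CPM in clone 1 and 14.1 CPM in clone 2. EPB41L5, a cytoskeletal linker of the FERM domain family, was at 0.878, 0.682 and 0.736 CPM in clone 1 and at 20.1, 19.4 and 20.3 CPM in clone 2, with WT at 15.2 to 15.8 CPM.

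Of the 8 genes that were on in clone 1 and off in clone 2, 4 lie in 1 block of the X chromosome. ARMCX5, an armadillo-repeat protein, stood at 15.4, 15.8 and 15.9 CPM in clone 1 and 13.5, 14.4 and 13.4 CPM in WT, and had 1 count over the 3 clone 2 libraries. The ratio of clone 1 to clone 2 was 1.91e+03 (95% counting interval 343 to 7.56e+04). GPRASP1, which binds G protein-coupled receptors and sends them to lysosomes, was at 5.41, 4.99 and 5.95 CPM in clone 1 and 0, 0 and 0.0934 CPM in clone 2. ARMCX5-GPRASP2, a read-through transcript, was at 5.37 to 6.33 CPM in clone 1 and at 0 in clone 2, at least 242-fold lower. In all, 6 neighbouring tested genes were called lower in clone 2 in a row, between positions 102599168 and 102717733, the others being ENSG00000286327 (at least 138-fold lower), BEND7P1 (at least 11.5-fold lower) and GPRASP2, which had 156 counts over clone 1 and 1 over clone 2. ARMCX5-GPRASP2 overlaps its 2 namesakes, so the counts of these 3 genes are not fully separable.

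Genes on either side of the block were expressed in both clones. On its far side LINC00630, which starts 170.0 kb from ARMCX5, averaged 25.4 and 23.3 CPM in clones 1 and 2 (adjusted p = 0.209). On the near side ZMAT1, at -667.1 kb, averaged 20.0 and 14.5 CPM. It was lower in clone 2 past the adjusted p but not called (log2 difference -0.46, adjusted p = 1.37e-06). Other members of the ARMCX family lie about a megabase away. ARMCX3 averaged 17.5 and 15.6 CPM and ARMCX6 19.2 and 19.9 CPM, and neither passed the test, though ARMCX3 did without clone 2 replicate 1 (adjusted p = 0.047). ARMCX1 went the other way, at 2.48 to 3.55 CPM in clone 1 and 5.30 to 6.69 CPM in clone 2 (log2 difference 1.01), a call lost when clone 1 replicate 3 (0.88), clone 2 replicate 1 (0.95) or clone 2 replicate 2 (0.97) was left out. PRRG1, a membrane protein with a Gla domain, is elsewhere on the X chromosome and was at 7.86, 7.13 and 6.29 CPM in clone 1, against 1 count over clone 2 and 8.99 to 10.6 CPM in WT. Its neighbours LANCL3, at 5.93 and 6.81 CPM, XK, at 38.8 and 34.2, and CYBB, at 3.34 and 3.29, were close to level. The remaining switched genes were ALOX12P2, a pseudogene at 2.39 to 3.51 CPM in clone 1 with 1 count in clone 2, and HSPA6, at 1.87 to 2.18 CPM in clone 1 and 0.0800 to 0.0969 CPM in clone 2. HSPA6 resembles other HSP70 genes, so its counts are less certain.

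**Figure D2:**
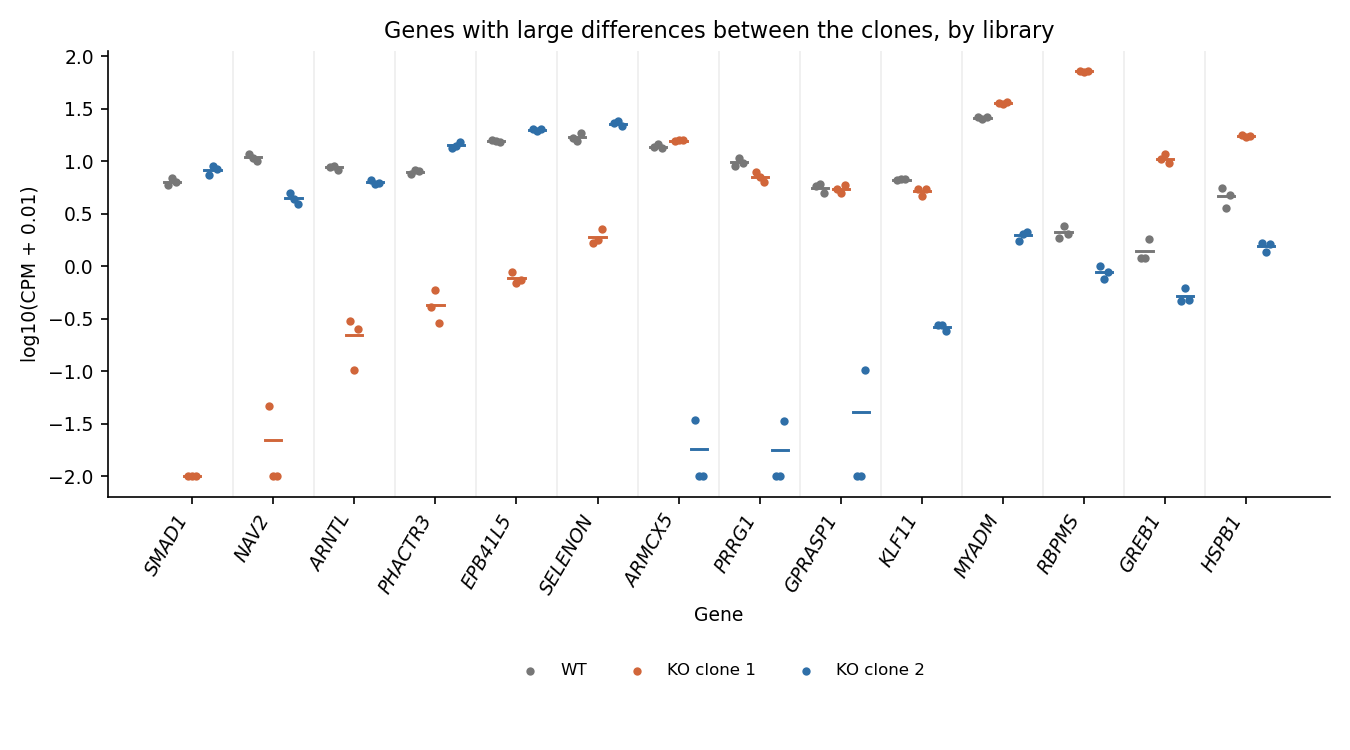
Level of 14 genes in each of the 9 libraries, as log10 of CPM plus 0.01, so that 0 CPM is drawn at -2; points are libraries and bars the log10 of the group mean. SMAD1 and NAV2 lie at the bottom in clone 1, ARMCX5, PRRG1 and GPRASP1 in clone 2, and RBPMS, GREB1 and HSPB1 have WT between the clones.

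RBPMS, an RNA-binding protein that controls splicing, showed the largest fall among abundant genes. It was at 71.6, 70.4 and 72.0 CPM in clone 1, at 0.993, 0.747 and 0.864 CPM in clone 2 and at 1.85, 2.39 and 2.03 CPM in WT. Clone 1 was therefore high and clone 2 slightly below WT, an 82.2-fold difference of means and a log2 difference of -6.35 ± 0.092 (SE), with an adjusted p of 1.86e-38. RBPMS-AS1, on its opposite strand, had 48 counts in clone 1 and none in clone 2 or WT, and ENSG00000279041, within RBPMS, followed at 4.06 to 4.47 and 0.0234 to 0.0800 CPM. The counting uses strand, but RBPMS-AS1 and ENSG00000279041 overlap RBPMS, and their part in its signal was not tested. Neighbours of RBPMS did not follow it: DCTN6 averaged 13.8 and 13.2 CPM and GTF2E2 16.5 and 20.1 CPM.

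The other large falls included GREB1, an oestrogen-responsive gene, at 9.69 to 11.6 CPM in clone 1 and 0.460 to 0.613 CPM in clone 2. KLF11, a Krüppel-like repressor, was at 4.65 to 5.38 and 0.234 to 0.267 CPM, with WT at 6.54 to 6.77 CPM. MYADM, a membrane protein of myeloid cells, was at 35.8, 34.7 and 36.5 CPM in clone 1, at 1.74, 2.03 and 2.10 CPM in clone 2 and at 25.3 to 26.2 CPM in WT. HSPB1, a small heat shock protein, was at 17.1 to 17.7 CPM in clone 1, 1.36 to 1.67 in clone 2 and 3.56 to 5.53 in WT. ACSM3, a mitochondrial acyl-CoA synthetase, averaged 5.82 and 0.504 CPM. CALHM2, a large-pore channel protein, had a log2 difference of -3.55, but of only -0.79 when counted without regard to strand, so this call rests on the strand of its reads.

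Large rises beside those already named were SELENON, a selenoprotein of the endoplasmic reticulum, at 1.65 to 2.27 CPM in clone 1 and 21.5 to 23.9 CPM in clone 2. CACNA2D1, a calcium channel subunit, was at 0.768 to 1.35 and 14.9 to 17.4 CPM. AFDN, an adherens junction scaffold, averaged 0.540 and 5.14 CPM, and ADAMTS1, a secreted protease that cleaves proteoglycans, 0.851 and 7.45 CPM. Both stayed below WT (22.5 and 20.9 CPM) in each clone. MUC4, a membrane mucin, was at 0.744 to 0.914 CPM in clone 1 and 0.708 to 1.07 CPM in WT, and at 5.12 to 6.98 CPM in clone 2. TDRD9, a germline RNA helicase, SLC25A29, a mitochondrial carrier of basic amino acids, and VCAN, a matrix proteoglycan, completed the 12 largest rises, with log2 differences of 2.45, 2.36 and 2.33.

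Among the most abundant called genes, clone 2 was higher for HLA-B (202, 205 and 190 CPM in clone 1; 374, 417 and 405 CPM in clone 2), which presents peptides to T cells. Its log2 difference of 1.00 ± 0.040 (SE) lies at the limit of the call and was 0.97 without clone 1 replicate 3 or clone 2 replicate 2 and 0.99 without clone 2 replicate 3. FAT1, a giant cadherin, averaged 70.1 and 168 CPM, HEG1, a mucin-like receptor, 58.1 and 152 CPM, and SIGLEC6, a sialic acid-binding receptor, 41.2 and 91.8 CPM. RNF130, TNXB, CYTH4 and RGS16 were also higher, with log2 differences of 1.01 to 1.08. RNF130 was just short of the limit without clone 1 replicate 2 or clone 2 replicate 3, and RGS16 without clone 1 replicate 3. Clone 2 was lower for TNS1, a tensin that links integrins to actin (117 and 55.9 CPM), BEND4 (92.8 and 14.6 CPM), CLIC4 (73.8 and 25.8 CPM) and CYFIP1, a subunit of the WAVE actin-regulating complex (63.5 and 27.3 CPM). PRKCA, a protein kinase C, averaged 31.1 and 12.3 CPM, and LAIR1, an inhibitory collagen receptor, 28.2 and 13.3 CPM.

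Neighbouring genes were called together in 8 places, counting runs of at least 3 consecutive tested genes in the same direction. PDGFRA, KIT and KDR, adjacent genes for receptor tyrosine kinases on chromosome 4, were all higher in clone 2. KIT, the stem cell factor receptor, was at 7.79, 7.13 and 5.92 CPM in clone 1, 20.3, 18.7 and 20.9 CPM in clone 2 and 5.19 to 7.82 CPM in WT. PDGFRA was at 0.402 to 0.496 and 2.88 to 3.62 CPM, and KDR, close to the detection limit, had 3 counts over clone 1 and 39 over clone 2, a ratio of 9.86 (95% counting interval 3.13 to 49.9). CHIC2 and SRD5A3 on either side averaged 16.1 and 13.6 CPM and 11.9 and 11.4 CPM. On chromosome 8, TNFRSF10D and TNFRSF10A, a decoy and a death receptor for the ligand TRAIL, were lower together with ENSG00000246582. TNFRSF10A was at 53.9, 54.8 and 53.4 CPM in clone 1, 24.2, 24.5 and 26.1 CPM in clone 2 and 19.2 to 21.5 CPM in WT. TNFRSF10B, the other death receptor, averaged 35.5 and 26.5 CPM (log2 difference -0.42), and TNFRSF10C 0.716 and 0.495 CPM (adjusted p = 0.285). Such runs were local. Medians of the log2 difference ran from -0.033 on chromosome 6 to 0.048 on chromosome 19 among the nuclear chromosomes analysed. In 1953 overlapping windows of 50 genes the medians ran from -0.19 to 0.13. Over 25 mitochondrial genes the median was -0.100, but the libraries of the clones overlapped. Relative to the mean of the 6 libraries, their median was 0.237 in clone 1 replicate 1 and -0.062 and -0.052 in the other clone 1 libraries. It was 0.071, -0.087 and -0.104 in clone 2.

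**Figure D3:**
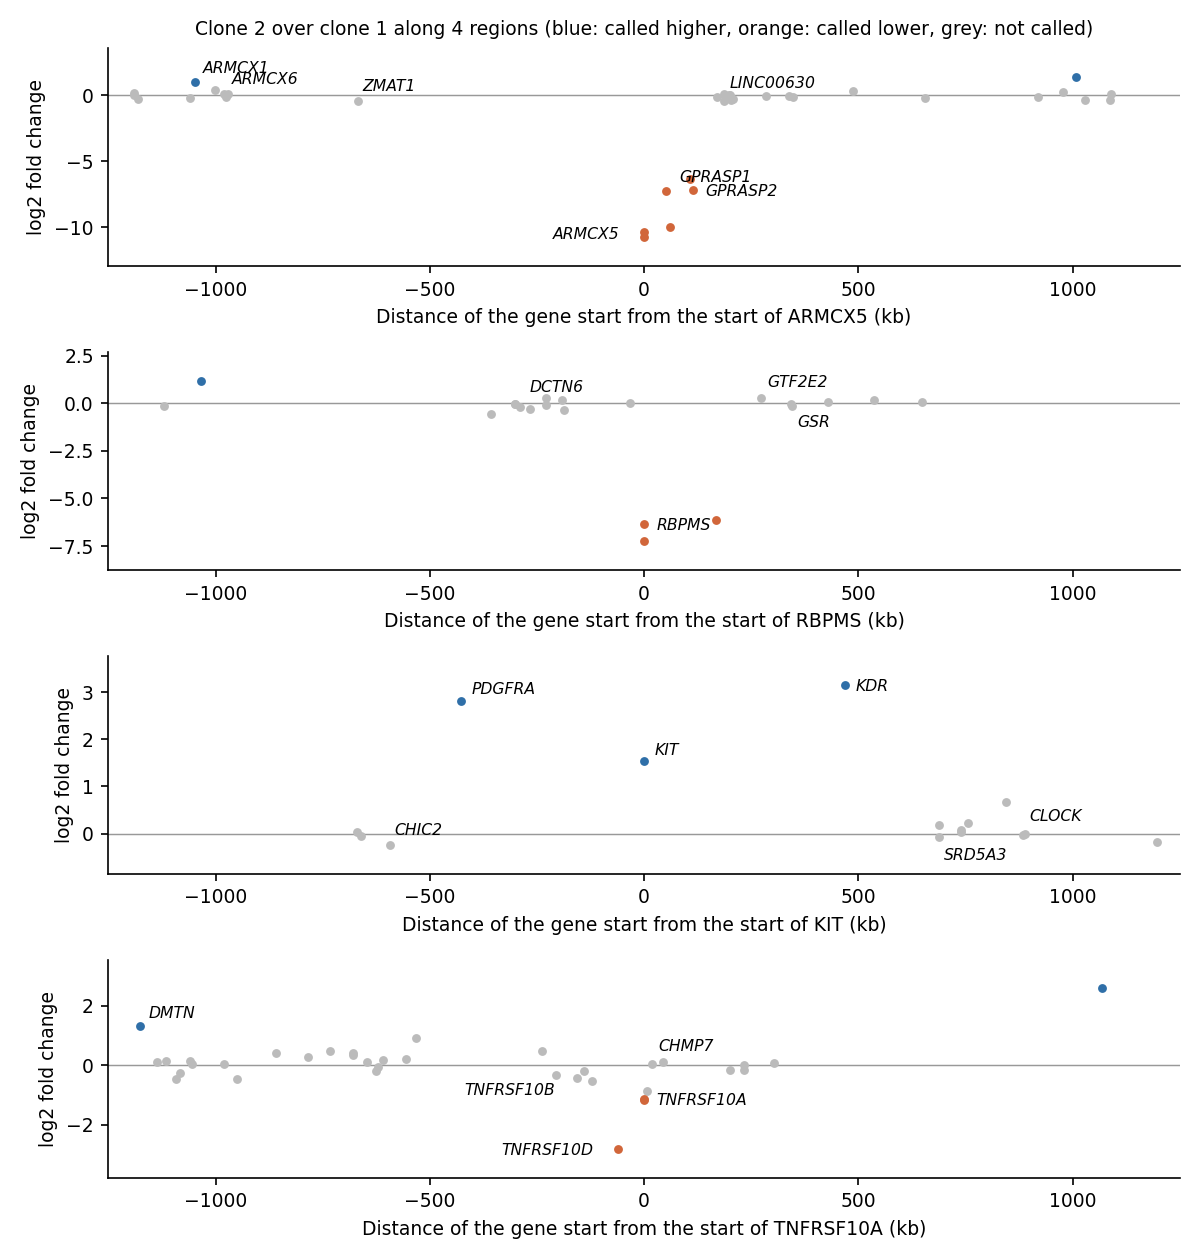
Log2 fold change of clone 2 over clone 1 (vertical axis) for tested genes within 1200 kb of ARMCX5, RBPMS, KIT and TNFRSF10A, by distance between gene starts in kb (horizontal axis). Blue points were called higher, orange points lower and grey points not called; called genes sit beside genes near 0 in each region.

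Gene lists gave a broader view, in which small differences ran the same way through many genes of some lists. The shares over all genes tested, set beside the lists here and below, were not matched for expression level. They include 9423 genes under 5 CPM, where a small difference passes less easily. Genes of ribosome biogenesis and translation ran higher in clone 2 more often than lower. Of 34 ribosome biogenesis genes and MYC targets tested, 26 were higher past the adjusted p and 0 lower, and the median log2 difference was 0.21, against 0.00 over all genes tested, of which 13.4% were higher and 12.6% lower. RRP12, a ribosome export factor, was at 62.6 to 67.1 CPM in clone 1 and 82.4 to 89.2 CPM in clone 2. BOP1, NOP56 and the RNA polymerase I subunits POLR1A and POLR1B differed by 0.39, 0.27, 0.31 and 0.27. SRM, which makes spermidine, was at 112 to 124 and 156 to 163 CPM. MYC itself was at 663 to 703 CPM in clone 1 and 694 to 726 CPM in clone 2 (adjusted p = 0.248). Of 79 cytosolic ribosomal protein genes, 18 were higher and 0 lower, and the median of 0.08 fell to 0.05 without clone 2 replicate 3. The list's median relative to the mean of the 6 libraries overlapped between the clones, at -0.067 to 0.013 in clone 1 and -0.035 to 0.081 in clone 2. Of 22 translation factors, 13 were higher and 0 lower (median 0.14), among them EIF4G1 at 676 to 711 and 809 to 831 CPM. No member of these 3 lists reached the fold limit of a call.

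Mitotic genes went the other way. Of 34 tested, 27 were lower in clone 2 and 0 higher, with a median of -0.22, where 12.6% of all genes tested were lower and 13.4% higher. AURKA, a kinase of the spindle poles, was at 76.6, 77.1 and 77.2 CPM in clone 1, 61.5, 59.4 and 57.3 CPM in clone 2 and 59.8 to 61.4 CPM in WT. KIF11 and KIF23, motors of the spindle and midbody, differed by -0.28 and -0.32, TTK, a checkpoint kinase, by -0.31, and the proliferation marker MKI67 by -0.22. The median of the list relative to the mean of the 6 libraries lay between 0.103 and 0.121 in the clone 1 libraries and between -0.117 and -0.111 in those of clone 2. Against WT the list median was 0.15 in clone 1 and -0.09 in clone 2. Of 55 replication-dependent histone genes, which are near-identical copies and whose counts are uncertain, 18 were lower and 0 higher (median -0.15). DNA replication genes were mixed, with 4 higher and 9 lower of 41 (median -0.02, from -0.04 to -0.01 with a library left out). E2F2, an E2F factor, was at 52.2 to 55.2 CPM in clone 1 and 29.5 to 30.6 CPM in clone 2 (log2 difference -0.83). Growth rates were not measured.

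Metabolic and stress gene lists differed among themselves, beside 13.4% higher and 12.6% lower over all genes tested. Of 24 cholesterol synthesis genes, 18 were higher and 0 lower (median 0.18). HMGCS1, an early enzyme of the mevalonate pathway, was at 387, 413 and 401 CPM in clone 1 and at 494, 536 and 509 CPM in clone 2, and DHCR7, MVD and LSS differed by 0.30, 0.38 and 0.23. Of 23 glycolysis genes, 13 were higher and 3 lower (median 0.18). The glucose transporters SLC2A3 and SLC2A1 were higher by 0.38 and 0.28, and PFKFB4, a regulator of glycolytic flux, was lower, at 19.6 to 19.7 CPM in clone 1 and 10.5 to 12.3 CPM in clone 2. Of 31 proteasome genes, 20 were higher and 0 lower (median 0.14). Of 17 heat shock proteins, 12 were higher and 3 lower (median 0.20). The list does not hold HSPA6, which was called lower in clone 2 (log2 difference -4.46). HSPA8, the constitutive HSP70, was at 2423 to 2475 and 3022 to 3044 CPM, while HSPB1 and HSPA1B were lower. BAG3, a co-chaperone, differed by 1.13 and lost its call without clone 1 replicate 1 (0.93). Of 28 genes of the unfolded protein and integrated stress responses, 12 were higher and 2 lower (median 0.14). Hypoxia response genes were split, with 5 higher and 7 lower of 18 (median -0.05). Of 46 nuclear genes of the respiratory chain, 9 were higher and 1 lower (median 0.04), and none of the 13 mitochondrial messenger RNAs passed the test.

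**Figure D4:**
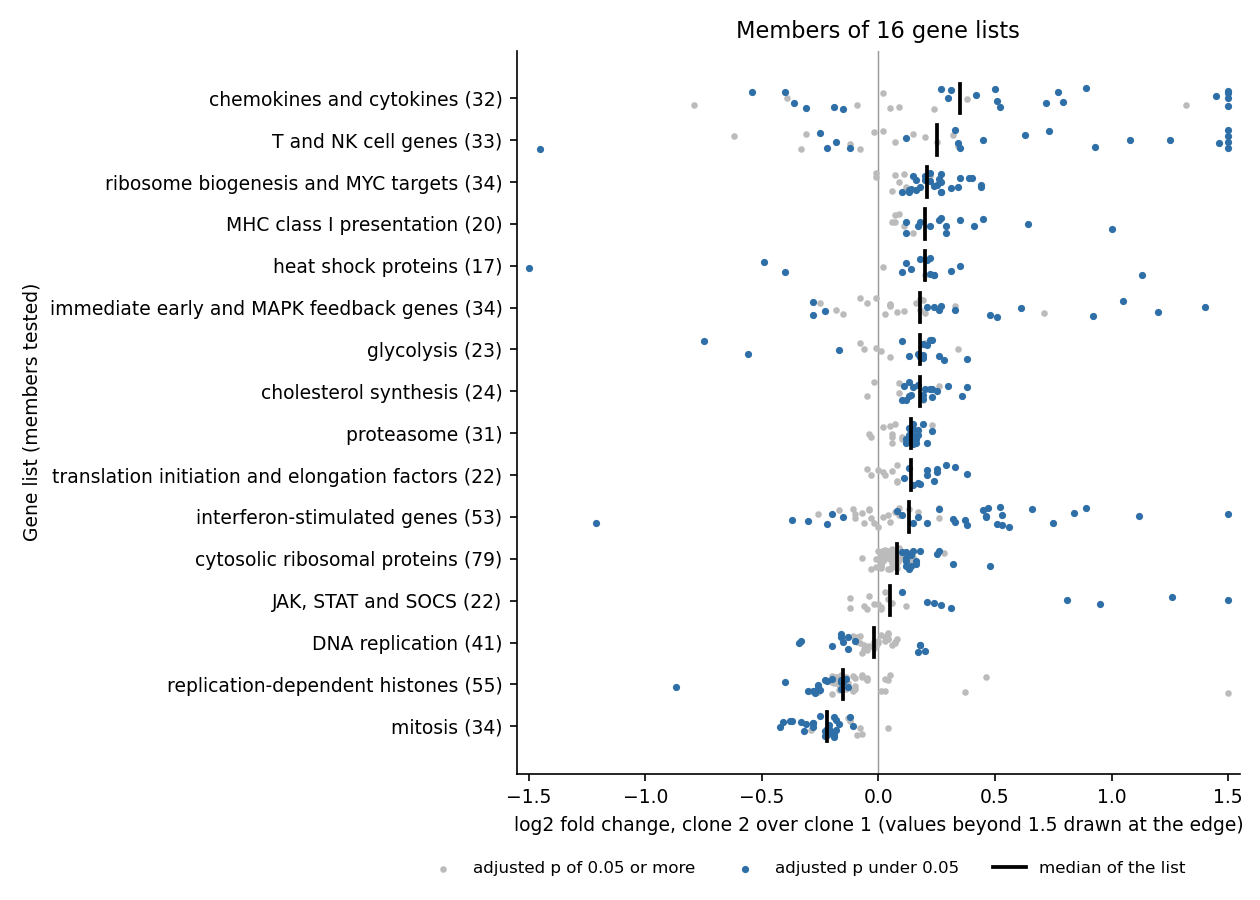
Log2 fold change of clone 2 over clone 1 for the tested members of 16 gene lists, with values beyond 1.5 drawn at the edge; each point is a gene, blue where its adjusted p was under 0.05 and grey otherwise, and the black bar is the list's median. Medians run from -0.22 for mitosis to 0.35 for chemokines and cytokines.

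Several immune gene lists held more genes higher than lower in clone 2, while innate immune sensing did not. The shares over all genes tested were 13.4% higher and 12.6% lower. Against WT, whose libraries both contrasts share, the list medians in clones 1 and 2 were -0.48 and -0.32 for MHC class I presentation, -0.53 and -0.35 for interferon-stimulated genes, -1.04 and -0.47 for chemokines and cytokines and -0.91 and -0.47 for T and natural killer cell genes. Of 20 genes of MHC class I presentation, 14 were higher and 0 lower (median 0.20). TAP1, which pumps peptides into the endoplasmic reticulum, was at 42.3, 45.0 and 42.7 CPM in clone 1, 66.8, 65 and 70.6 CPM in clone 2 and 111 to 118 CPM in WT. HLA-C and HLA-E differed by 0.45 and 0.35. Reads of HLA genes can be shared between near-identical loci, so their levels are uncertain. Of 53 interferon-stimulated genes, 25 were higher and 6 lower (median 0.13). GBP1, a guanylate-binding protein induced by interferon, was at 26.0, 24.0 and 26.2 CPM in clone 1, 40.5, 45.3 and 42.3 CPM in clone 2 and 91.8 to 99.0 CPM in WT, a log2 difference of 0.75 ± 0.050 (SE) with an adjusted p of 1.27e-15. GBP5, APOL6 and DTX3L differed by 0.52, 0.56 and 0.46. IFI35 and SAMHD1, a nuclease that restricts viruses, were called higher (1.12 and 1.60), and IFI27 was called lower (-1.21). Lower members also included OAS2 (-0.37), CMPK2 (-0.30) and OAS3 (-0.20). Of 25 NF-kB pathway genes and targets, 7 were higher and 4 lower (median 0.06), and of 9 MHC class II presentation genes, 1 and 0 (median -0.11). Of 26 genes of innate immune sensing, 0 were higher and 6 lower (median 0.03), among them the inflammasome sensor NLRP3 (log2 difference -0.58).

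Chemokine and cytokine genes had the highest median of the lists drawn in the plot of gene lists. Of 32 chemokines and cytokines, 16 were higher and 6 lower, 5 of the former called, and the median was 0.35, or 0.53 without clone 1 replicate 2. Among all genes tested, 13.4% were higher and 12.6% lower past the adjusted p, and 1.58% were called higher. CSF2, the growth factor GM-CSF, was at 2.27, 1.49 and 1.93 CPM in clone 1, 5.50, 4.61 and 6.31 CPM in clone 2 and 7.40 to 8.05 CPM in WT. LIF, an interleukin 6 family cytokine, was at 0.0731 to 0.337, 0.853 to 1.14 and 7.55 to 8.68 CPM in the same order. OSM, IL32 and XCL1 differed by 0.79, 0.52 and 1.45, where XCL1 and XCL2 are near-identical copies. CXCL3 (-0.54) and IL18 (-0.40) were lower. Of 22 JAK, STAT and SOCS genes, 9 were higher and 0 lower (median 0.05, or 0.03 without clone 2 replicate 1). SOCS1, an inhibitor of interferon signalling, was at 4.57, 5.71 and 5.52 CPM in clone 1, 15.7, 17.1 and 16 CPM in clone 2 and 28.4 to 33.9 CPM in WT. SOCS3 was at 9.44 to 10.2 CPM in clone 1, and clone 2 (22.8 to 24.4 CPM) overlapped WT (21.9 to 23.9 CPM). The kinase PIM2 was at 78.6 to 84.6 CPM in clone 1 and 156 to 164 CPM in clone 2. Of 34 immediate early and MAPK feedback genes, 12 were higher and 3 lower (median 0.18, or 0.12 without clone 1 replicate 1), with DUSP4, DUSP5 and EGR2 called higher.

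Genes of T and natural killer cells, some of which KG-1a expresses, were higher in clone 2 more often than lower. Of 33 tested, 15 were higher and 5 lower past the adjusted p, with 7 and 1 called (median 0.25). Over all genes tested, 13.4% were higher and 12.6% lower past the adjusted p, and 1.58% and 1.23% were called. NKG7, a cytotoxic granule protein, was at 51.6, 51.0 and 48.2 CPM in clone 1, 77.6, 76.0 and 79.2 CPM in clone 2 and 108 to 121 CPM in WT. CD3D, of the T cell receptor complex, was at 114 to 123 and 143 to 156 CPM, and TBX21, the T-bet factor, at 3.10 to 4.13 and 9.84 to 10.3 CPM. FYN, a Src family kinase, was at 0 to 0.256 and 0.827 to 1.26 CPM, and CD8A had 0 counts in clone 1 and 29 in clone 2, at least 7.34-fold higher. The CD8A call was lost when reads were counted without regard to strand (adjusted p = 0.0604), and that of CD3G when clone 1 replicate 2 (adjusted p = 0.168), clone 2 replicate 1 (0.11) or clone 2 replicate 3 (0.111) was left out. CD28 was lower (-1.45).

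**Figure D5:**
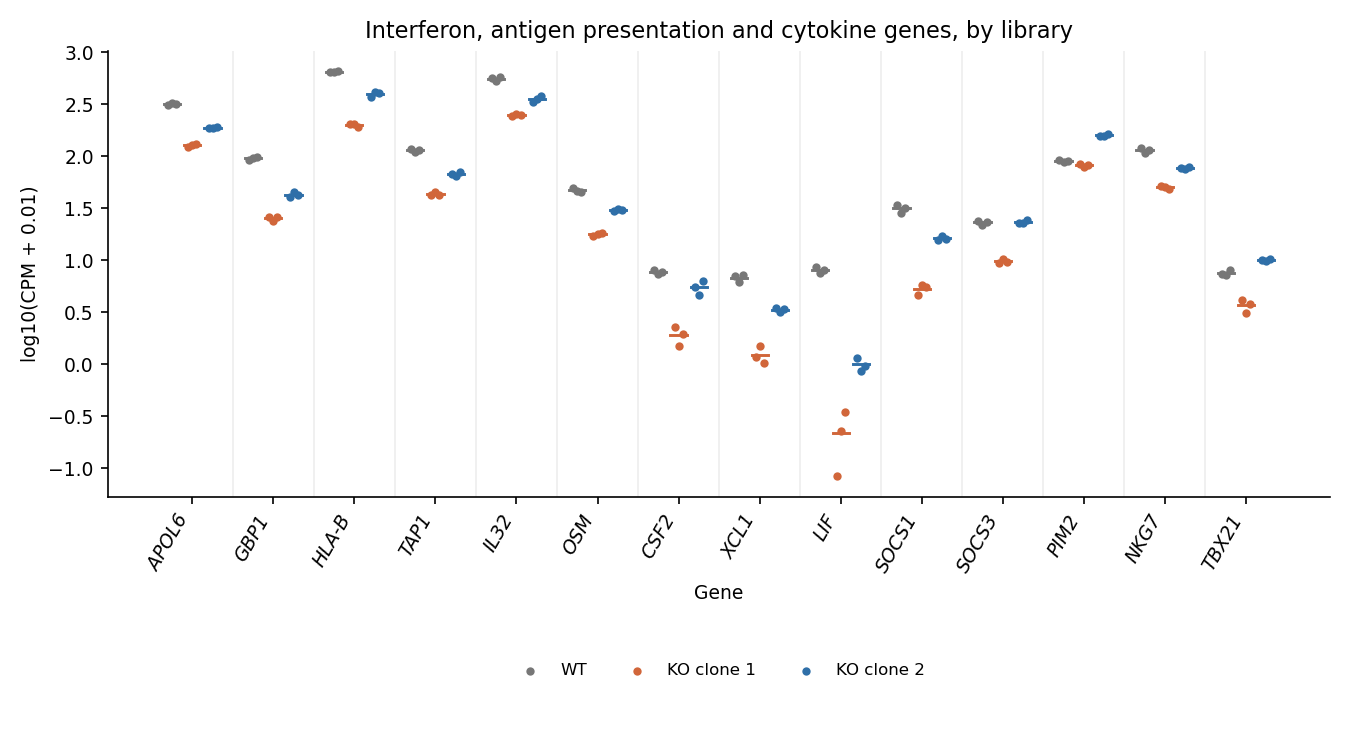
Level of 14 interferon, antigen presentation, cytokine, signalling and lymphoid genes in each of the 9 libraries, as log10 of CPM plus 0.01; points are libraries and bars the log10 of the group mean. The genes drawn were picked from those higher in clone 2, and lower members of the same lists, such as IFI27, CXCL3 and CD28, are not shown. That the clone 2 libraries lie above those of clone 1 in all 14 therefore follows from the choice. The same held for 18.9% of all genes tested. For 11 of the 14 the WT libraries lie above both.

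TGF-beta and BMP signalling genes were mixed beside SMAD1: of 27 tested, 10 were higher and 6 lower (37% and 22.2%, against 13.4% and 12.6% of all genes tested). ID2, a target of BMP signals, was higher in clone 2, at 26.5 to 27.9 and 47.0 to 50.3 CPM. SMAD7 and SKIL, which restrain TGF-beta signals, were lower (-0.61 and -0.42), as was LTBP1, which binds latent TGF-beta (-1.14). Adhesion genes split too, with CDH2 at 19.6 to 20.6 and 4.82 to 5.23 CPM against 138 to 149 CPM in WT, and ITGB3 at 1.54 to 2.17 and 6.66 to 8.04 CPM. DNMT3B, which methylates DNA, was higher in clone 2, at 248 to 269 and 336 to 357 CPM, with WT at 351 to 361 CPM. Of 34 imprinted genes, 8 were higher and 3 lower (23.5% and 8.82%). H19, an imprinted RNA, was called, at 0.0366 to 0.124 CPM in clone 1, 0.853 to 1.28 CPM in clone 2 and 0.585 to 1.02 CPM in WT. Of 48 clustered protocadherins, 1 passed the test, against 25.9% of all genes tested. Their log2 differences ran from -0.55 to 0.90. Genes of these clusters overlap, so their counts are uncertain, and the lack of passes does not show that the clones agree there. In the authors' deposited table, which pools both clones against WT, SMAD1 had a log2 fold change of -0.55 (adjusted p = 0.934), ARMCX5 -0.80 (0.879) and RBPMS 1.34 (0.205).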

How the data were processed

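RNA from KG-1a cells was sequenced in 9 libraries, 3 per group. Per the labels and the submitters' processing notes, reads were aligned to GRCh38 with STAR, and each library's deposited file holds the authors' raw gene counts. Versions are not given in the sources used here. The authors' deposited table gives log2 fold changes and adjusted p-values from DESeq2 for both clones together against WT, and was used for symbols (40591 of 60605 genes) and 3 quoted genes.

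The counting of the strand that held 92.03% to 92.31% of stranded counts was used. The analysis used edgeR 4.0.16 under R 4.3.3: filterByExpr by group (20655 genes kept), TMM scaling, and a robust quasi-likelihood fit over all 9 libraries with the contrast clone 2 minus clone 1. Calls needed a p under 0.05 after Benjamini-Hochberg adjustment and a log2 fold change of 1 or more in either direction, as the series text sets them. DESeq2 1.42.0 was an alternative. Standard errors were derived from F and are approximate. Scripts were tested on simulated data. Positions and types came from GENCODE release 44, and promoters from RefSeq. Counted pairs were 25.93% to 29.59% of all pairs, and 3 counts came to 0.0695 to 0.107 CPM. Bounds use 3 counts over a group with 0, and ratios over 1 to 3 counts have exact 95% intervals. Neither covers more than counting error, because PCR copies were not marked. Between replicates the chi-squared per degree of freedom was 2.45 to 4.78, except 44.37 and 45.03 for pairs with clone 1 replicate 1.

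The comparison and the 47 gene lists were chosen with earlier results of these data known. Named genes were the PRMT family, the 12 largest rises and 12 largest falls among called genes at 5 CPM or more without overlap, the 8 most abundant called genes per direction, the switched genes, and up to 5 members, by adjusted p, of lists with at least 2 called members or with 50% of tested members past the adjusted p in 1 direction. Not all are reported. Other genes, among them KIT's and RBPMS's neighbours, TNFRSF10 and ARMCX relatives, MYC, MKI67, E2F2, SRM, LIF, NLRP3, SAMHD1, IFI35, IFI27, FYN, CD8A, CD3G, CD28, BAG3, DNMT3B and H19, were chosen after their values were seen. Chromosome Y genes and XIST were left out of the named genes.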

Additional observations from a re-analysis of the deposited data

Results flagged for a closer look

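Of 11 genes that differed from WT in opposite directions in the 2 clones, called in both, 10 had a symbol, with the difference between the clones tested by edgeR's quasi-likelihood test. Higher than WT in clone 1 and lower in clone 2 were SERPINB9, an inhibitor of granzyme B (log2 difference between the clones -7.26), RBPMS (-6.35), GREB1 (-4.36), LDLRAD2 (-4.14) and HSPB1 (-3.48). SERPINB9 had 1 count over the clone 2 libraries, so its fitted value is no bound, and the ratio of clone 1 to clone 2 was 218 with a 95% counting interval of 38.5 to 8.65e+03. Lower than WT in clone 1 and higher in clone 2 were ITGA2, a collagen receptor subunit (2.63), PDGFRA (2.82), CACNA2D1 (3.84), HPSE2 (4.30) and PTPRS, a receptor phosphatase (4.56). The changes against WT in clones 1 and 2, which share the WT libraries, were 5.08 and -1.26 for RBPMS, 1.92 and -1.56 for HSPB1, -1.18 and 1.63 for PDGFRA and -2.85 and 1.71 for PTPRS. Outside the gene counts, 13.33% of the read pairs of KO clone 1 replicate 1 had more than 1 place in the genome, while the remaining libraries ranged from 3.86% to 4.51%.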

How the results depend on the processing

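With RLE scaling 582 genes were called, with DESeq2 521, with no low-count filter 633, in a fit of the 6 clone libraries 513, with mitochondrial genes left out 585 and by glmTreat against 0.5 469. Requiring 1 CPM in 3 libraries gave 347, 207 higher and 140 lower, from fewer weak genes. Counting without regard to strand gave 610, of which 456 were shared. Replicate numbers did not pair the libraries (correlations of same-numbered deviations -0.028 to 0.039), and the replicate block gave 577. Leaving out each clone library gave 554 to 591 called, 310 to 331 higher and 239 to 273 lower. List medians moved beyond replicate spread as follows, and the cause was not tested. With no filter, mitosis was -0.21, interferon-stimulated genes 0.15 and chemokines 0.28. T and NK cell genes were 0.19 without strand and 0.18 in the 6 libraries. Leaving out a library gave 0.14 to 0.20 for cholesterol synthesis, 0.15 to 0.19 for glycolysis, 0.15 to 0.22 for heat shock proteins, 0.18 to 0.22 for MHC class I, 0.31 to 0.53 for chemokines, 0.17 to 0.29 for T and NK cell genes, 0.12 to 0.23 for immediate early genes, 0.038 to 0.051 for chromosome 19 and -0.038 to -0.028 for chromosome 6. None of the named genes that passed the adjusted p in the main fit changed sign in any alternative. The signs of the named genes that did not pass were not compared. Chromosome arms were not run. The list of 12 switched genes kept 9 without regard to strand, losing ALOX12P2, BLVRA and ENSG00000279041, and all but BLVRA without clone 1 replicate 3. Asking for at least 5 CPM against under 0.3 CPM gave 8 genes, of which 5 were among the 12. That setting lost ALOX12P2, BLVRA, ENSG00000279041, ENSG00000281566, ENSG00000286327, HSPA6 and NAV2, and gained ARNTL, KLF11 and MTRNR2L12. Depth limits genes under 3 counts.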
